A study of Mus musculus with 10 samples.

Results

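Markers of amacrine, starburst amacrine and horizontal cells were followed through 10 RNA-seq libraries of sorted retinal ganglion cells. These are 35 genes out of 23258 gene symbols in the table, taken by name from marker lists, and all 35 had a row. The lists were chosen with earlier results of these data known. They comprise 4 genes of inhibitory transmission, 10 amacrine transcription factors, 5 genes of amacrine subtypes, 10 starburst amacrine genes and 6 horizontal cell genes. Cells were marked by GFP driven from Hb9 (Mnx1), came from C57BL/6 retinas at postnatal day 6, and were sorted by fluorescence, with RNA from about 1000 cells per library. There were 5 Satb1-/- Hb9-GFP libraries (knockout 1 to 5) and 5 wild-type Hb9-GFP libraries (wild-type 1 to 5), each genotype sampled from different litters. Both genotypes share the reporter. The labels do not say which part of Satb1 is missing, whether retinas were pooled, or the sex of the mice.

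Amacrine and horizontal cells are the inhibitory interneurons of the inner and outer retina, and ganglion cells are its output neurons. Most amacrine cells release GABA or glycine, whereas starburst amacrine cells release acetylcholine together with GABA and provide the inhibition on which direction-selective ganglion cells depend. Some amacrine cell bodies lie in the ganglion cell layer, and several transcription factors, among them Pax6, are known from both amacrine and ganglion cells, so that a name on a marker list does not by itself assign a transcript to a cell type.

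The defining genes of ganglion cells were present in every library. Rbpms, an RNA-binding protein gene of all ganglion cells, stood at 491 to 2978 TPM (a transcript abundance scaled for length and for the library total) in knockout and 374 to 1767 TPM in wild-type, and 13 of 14 pan-ganglion cell genes had at least 1 TPM in every library. Satb1 itself was at 24.1 to 170.4 TPM in knockout and 38.6 to 414 TPM in wild-type, so the ranges overlapped. The knockout 4, knockout 5 and wild-type 5 libraries stood apart on the first principal component (scores of 88.0 to 149, against at most -14.2 in the other 7), which held 32.9% of the variance, and wild-type 4 stood apart on the second. Depth is unknown because TPM keeps none, and a value of 0 is given as listed at 0, since it can be a failed estimate.

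The markers fell into a group present in every library and a group that was sparse or listed at 0. With 1 TPM as the limit, 11 of the 35 genes reached it in all 10 libraries, 5 in 5 to 9 libraries, 15 in 1 to 4 libraries and 4 in none. The same classes held 32.5%, 18.0%, 17.8% and 31.7% of all symbols, against 31.4%, 14.3%, 42.9% and 11.4% of the markers. The 11 genes found throughout were the transcription factor genes Pax6, Meis2, Ebf3 and Nhlh2, the amacrine subtype genes Chgb and Pcp4, the starburst list genes Megf11, Slc10a4 and Ache, and the horizontal cell list genes Onecut1 and Calb1. The 4 genes under 1 TPM everywhere were Gad1, Vip, Fezf1 and Lhx1. Without knockout 4, knockout 5 and wild-type 5, 12 genes reached 1 TPM in all 7 remaining libraries and 8 in none.

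**Figure D1:**
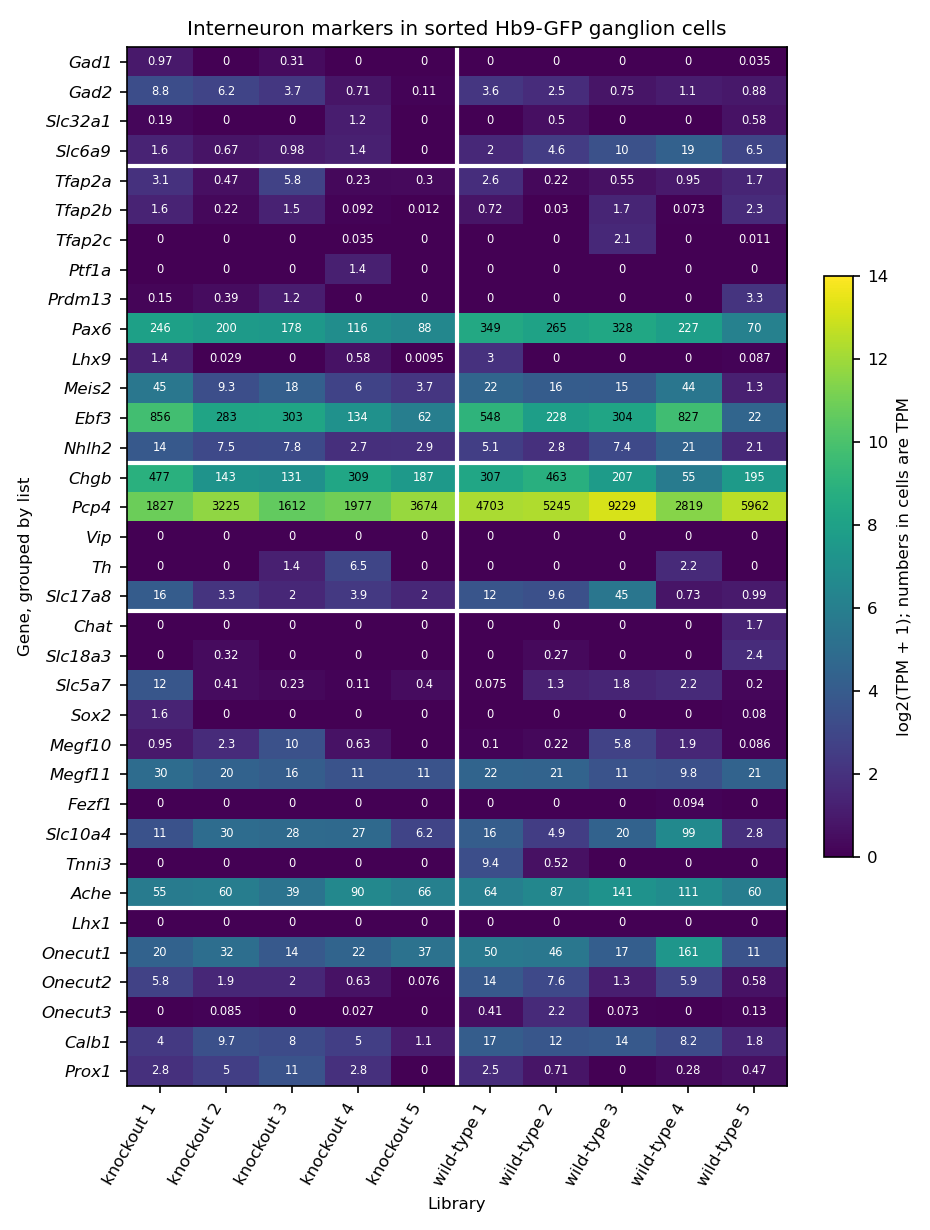
TPM of the 35 markers (rows, separated by white lines into inhibitory transmission, amacrine transcription factor, amacrine subtype, starburst and horizontal cell genes) in the 5 knockout libraries (left) and the 5 wild-type libraries (right), coloured by log2(TPM + 1). Pcp4, Ebf3, Pax6, Chgb and Ache are bright in every column, while Chat, Ptf1a, Vip and Lhx1 are dark in all or all but 1 column.

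In 4 of the 5 lists, the summed level rested on a few broadly found genes. Pax6, Meis2, Ebf3 and Nhlh2 held 92.8% to 99.95% of the TPM of the 10 amacrine transcription factors in every library. Pcp4 and Chgb held 99.3% to 99.98% of the subtype list, Megf11, Slc10a4 and Ache 86.5% to 99.5% of the starburst list, and Onecut1 and Calb1 62.9% to 99.8% of the horizontal cell list. The remaining members of the starburst list added up to 0.397 to 14.9 TPM in knockout and 2.35 to 9.61 TPM in wild-type libraries. The whole list of inhibitory transmission genes, none of which reached 1 TPM throughout, added up to 0.107 to 11.6 TPM in knockout and 5.62 to 20.3 TPM in wild-type.

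Among genes of inhibitory transmission, the enzyme genes for GABA synthesis gave different pictures. Gad1, which encodes the larger glutamate decarboxylase (chromosome 2, 70553072 to 70602014, plus strand), was at 0.973 and 0.306 TPM in knockout 1 and 3, at 0.0353 TPM in wild-type 5, and listed at 0 in the other 7 libraries. Gad2, which encodes the smaller, synapse-associated decarboxylase (chromosome 2, 22622205 to 22693874, plus strand), had a value in all libraries, at 8.83, 6.25, 3.73, 0.713 and 0.107 TPM in knockout 1 to 5 and 3.59, 2.48, 0.752, 1.09 and 0.884 TPM in wild-type 1 to 5. It was above Gad1 in 10 of 10 libraries, and its highest levels were in knockout 1 to 3 with full overlap between the genotypes. Slc32a1, the transporter gene that loads GABA and glycine into vesicles, reached 1.18 TPM in knockout 4, was under 1 TPM in knockout 1 and wild-type 2 and 5, and was listed at 0 in 6 libraries.

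Slc6a9, the glycine transporter gene of glycinergic amacrine cells that is also known from glia (chromosome 4, 117834506 to 117875198, plus strand) gave the 1 case among tested markers in which the genotypes did not overlap. It stood at 1.599, 0.671, 0.985, 1.36 and 0 TPM in knockout 1 to 5, against 2.03, 4.60, 10, 19.2 and 6.53 TPM in wild-type 1 to 5. All 5 knockout libraries lay below all 5 wild-type libraries, by a narrow margin between knockout 1 and wild-type 1. The log2 difference, knockout minus wild-type on the log2(TPM + 1) scale, was -2.09 (SE 0.68, 95% interval -3.52 to -0.66). The two-sided exact permutation p was 0.00794, the smallest that 5 against 5 libraries allow. This test was run for each of the 16 tested markers and for the tested genes of the other lists given below. Across all genes Slc6a9 did not pass (limma, Benjamini-Hochberg adjusted p = 0.992). Non-overlapping genotypes were found for 0.502% of all tested genes, 0.426% in this direction, and for 6.25% of the tested markers, which is this 1 gene. Slc6a9 entered the test through its wild-type libraries, of which 5 had at least 1 TPM, against 2 knockout libraries, so its inclusion rested on the genotype in which it was high.

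Markers of other cells were examined beside Slc6a9. The 12 Muller glia genes had between 5 and 9 members at 1 TPM or more per library and summed to 222 to 7877 TPM in knockout and 337 to 629 TPM in wild-type, with Rlbp1, a defining retinoid-binding protein gene of Muller glia, at 0 to 0.751 TPM in knockout and 0 to 2.28 TPM in wild-type. Of the 6 Muller glia genes tested, 5 had a higher and 1 a lower estimate in knockout (median log2 difference 0.54). Over all tested genes 67.4% were lower, with a median of -0.31. None of the 6 had an unadjusted limma p under 0.05. The highest sum was that of knockout 5, in which Apoe stood at 5651 TPM and Vim at 2118 TPM. In that library Rlbp1 was listed at 0, and the Muller glia genes not found in all libraries summed to 0.282 TPM. The 13 microglia genes also had their highest sum in knockout 5, at 3238 TPM. The 10 endothelial and pericyte genes had between 0 and 6 members at 1 TPM or more per library and summed to 1.21 to 7.71 TPM in knockout and 5.84 to 61.6 TPM in wild-type, with 4 of the 5 wild-type sums above all knockout sums. Its 1 tested gene was Rgs5, a pericyte gene, at 0.103, 1.59, 0.957, 0.0326 and 0.54 TPM in knockout 1 to 5 and 38.6, 42.9, 0, 23.8 and 3.18 TPM in wild-type 1 to 5. Rgs5 differed by -2.86 on the log2 scale (SE 0.93), with an unadjusted limma p of 0.00581 and 0.992 after Benjamini-Hochberg adjustment. Rgs5 met the filter through 4 wild-type libraries and 1 knockout library, so its inclusion also rested on the genotype in which it was high. The part of these lists in the Slc6a9 values was not tested. In a bulk library, fewer cells of a type and less RNA per cell cannot be told apart.

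The transcription factors that define amacrine fate in development were sparse. The AP-2 genes ran, over the 10 libraries, from 0.225 to 5.84 TPM for Tfap2a and from 0.0117 to 2.30 TPM for Tfap2b, each at 1 TPM or more in 4 libraries (2 of each genotype). Tfap2a was above Tfap2b in 8 of 10 libraries. Tfap2c was at 2.11 TPM in wild-type 3, under 0.04 TPM in knockout 4 and wild-type 5, and listed at 0 elsewhere. Ptf1a, the factor needed for amacrine and horizontal cell fates, was at 1.39 TPM in knockout 4 and listed at 0 in the other 9 libraries. Prdm13, which acts in amacrine subtype choice, reached 1.19 TPM in knockout 3 and 3.33 TPM in wild-type 5, with 6 libraries listed at 0. The LIM homeobox gene Lhx9 reached 1.38 TPM in knockout 1 and 2.99 TPM in wild-type 1 and stayed under 0.6 TPM elsewhere.

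The other 4 transcription factors of the list reached 1 TPM in every library. Pax6, the paired homeobox regulator of eye development (chromosome 2, 105668900 to 105697364, plus strand), stood at 246, 200.4, 178, 116 and 88.5 TPM in knockout 1 to 5, against 349, 265, 328, 227 and 70.4 TPM in wild-type 1 to 5. The means were 166 ± 63.7 TPM in knockout and 248 ± 111 TPM in wild-type (SD, n = 5 each), and the genotypes overlapped. Ebf3, a factor of the early B cell factor family known from amacrine and ganglion cells (chromosome 7, 137193673 to 137314445, minus strand), was measured at 856, 283, 303, 134 and 62.5 TPM in knockout and 548, 228, 304, 827 and 22.5 TPM in wild-type. It varied 38.1-fold between libraries and was highest in knockout 1 and wild-type 4. Of the ganglion cell genes Rbpms, Pou4f2 and Slc17a6, only Rbpms was highest in the same libraries (2978 and 1767 TPM). Pou4f2 was highest in knockout 3 and 2 (839 and 734 TPM), and Slc17a6 in wild-type 1 and 3 (726 and 662 TPM).

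Meis2, a homeobox gene of the TALE class, and the helix-loop-helix gene Nhlh2 were, like Ebf3, highest in knockout 1 and wild-type 4. Meis2 (chromosome 2, 115863064 to 116065839, minus strand) was measured at 45.5, 9.30, 17.8, 6.05 and 3.71 TPM in knockout and 22.5, 15.9, 15.2, 43.9 and 1.33 TPM in wild-type. Nhlh2 (chromosome 3, 102010076 to 102015492, plus strand) stood at 13.98, 7.51, 7.82, 2.73 and 2.85 TPM in knockout and 5.08, 2.80, 7.39, 20.9 and 2.06 TPM in wild-type. Both genotypes spanned nearly the same range for each of these genes. Against Pou4f2, a homeobox gene that specifies ganglion cells (59.7 to 839 TPM in knockout and 45.3 to 480 TPM in wild-type), Ebf3 was the higher of the pair in 4 of 10 libraries and Pax6 in 3.

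Pax6, Meis2, Ebf3 and Onecut2 were lower in each of knockout 4, knockout 5 and wild-type 5 than in all other 7 libraries. Pax6, for example, was at 70.4 to 116 TPM in these 3 libraries and 178 to 349 TPM in the other 7. Of the 14 pan-ganglion cell genes, 5 showed the same order, among them Slc17a6, at 55.2 to 96.7 TPM against 176 to 726 TPM. The opposite order was found for 2, the surface antigen gene Thy1 and the growth cone gene Gap43, and Rbpms was in neither set. Over all tested genes 21.2% had these 3 libraries lowest, as did 4 of the 16 tested markers.

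Among subtype genes, Pcp4 was the most abundant marker of the list. Pcp4 encodes a small calmodulin-binding protein (chromosome 16, 96467606 to 96525793, plus strand). It stood at 1827, 3225, 1612, 1977 and 3674 TPM in knockout 1 to 5, against 4703, 5245, 9229, 2819 and 5962 TPM in wild-type 1 to 5. Only wild-type 4 fell within the knockout range. The means were 2463 ± 924 TPM in knockout and 5592 ± 2343 TPM in wild-type (SD, n = 5 each). The genotype estimate was -1.16 on the log2 scale (SE 0.50, 95% interval -2.20 to -0.12). The two-sided exact permutation p was 0.0238, and across all genes the gene did not pass (limma, Benjamini-Hochberg adjusted p = 0.992). After median centring of the libraries the difference was -0.78, with an unadjusted limma p of 0.213. Pcp4 was above Rbpms in 9 of 10 libraries.

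Chgb, which encodes a granin of dense-core vesicles (chromosome 2, 132781278 to 132795079, plus strand), stood at 477, 143, 131, 309 and 187 TPM in knockout and 307, 463, 207, 55.3 and 195 TPM in wild-type, with means of 249 ± 145 and 246 ± 151 TPM (SD, n = 5 each). Slc17a8, the gene of the vesicular glutamate transporter VGLUT3 of a glutamatergic amacrine type (chromosome 10, 89574020 to 89621253, minus strand), was measured at 15.6, 3.29, 1.98, 3.92 and 1.97 TPM in knockout and 11.9, 9.61, 44.6, 0.728 and 0.987 TPM in wild-type. It was high in 1 knockout and 3 wild-type libraries, wild-type 3 holding 47.1% of its summed TPM, and was below Slc17a6, the vesicular glutamate transporter gene of ganglion cells, in 10 of 10 libraries. The peptide gene Vip was listed at 0 in every library. Th, which encodes the rate-limiting enzyme of dopamine synthesis, was at 1.39 and 6.48 TPM in knockout 3 and 4, at 2.24 TPM in wild-type 4, with 0 listed for the other 7.

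The genes that define the cholinergic starburst cell were at or near 0. Chat, which encodes the enzyme that makes acetylcholine (chromosome 14, 32408203 to 32465989, minus strand), was listed at 0 in all 5 knockout libraries and in wild-type 1 to 4, and was at 1.68 TPM in wild-type 5. Slc18a3, the vesicular acetylcholine transporter gene, lies within Chat on the same strand (32462438 to 32464850), so reads there may be assigned to either. It was at 0.319 TPM in knockout 2, 0.269 TPM in wild-type 2 and 2.45 TPM in wild-type 5, and listed at 0 in the other 7 libraries. Wild-type 5 was thus the 1 library with both genes, whose values may not be independent if reads are shared. It also held the highest levels of Prdm13 and Tfap2b, but the lowest of Pax6, Meis2, Ebf3, Nhlh2 and Slc10a4. Slc5a7 and Megf10 stood at 0.201 and 0.0865 TPM in wild-type 5.

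The choline transporter gene Slc5a7, which supplies choline for acetylcholine synthesis (chromosome 17, 54273590 to 54299034, minus strand), was measured at 12.3, 0.406, 0.234, 0.110 and 0.397 TPM in knockout 1 to 5 and 0.0754, 1.33, 1.75, 2.19 and 0.201 TPM in wild-type 1 to 5. Knockout 1 held 64.8% of its summed TPM. Knockout 1 was also the library with Sox2, the HMG-box factor of starburst cells and of glia and progenitors, at 1.65 TPM, against 0.0802 TPM in wild-type 5 and a listing at 0 in the other 8. Chat and Slc18a3 were listed at 0 in knockout 1, so the cholinergic genes did not share a library there. Fezf1, a zinc finger gene of ON starburst cells, had its only value above 0 in wild-type 4, at 0.0944 TPM. Tnni3, which encodes the cardiac form of troponin I, was listed at 0 in all 5 knockout libraries and in wild-type 3 to 5, and reached 9.43 TPM in wild-type 1 and 0.521 TPM in wild-type 2.

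The starburst list genes found throughout are less restricted in their known expression. Ache, which encodes acetylcholinesterase and is known from cells that receive acetylcholine as well as cells that release it (chromosome 5, 137287519 to 137294466, plus strand), stood at 55.5, 59.7, 39.4, 90.2 and 66.4 TPM in knockout and 64.2, 86.7, 141, 111 and 59.9 TPM in wild-type. The means were 62.2 ± 18.5 TPM in knockout and 92.6 ± 33.9 TPM in wild-type (SD, n = 5 each), and Ache varied 3.58-fold over the libraries, among the narrowest ranges of the list. Megf11, a transmembrane protein gene that with Megf10 sets the spacing of starburst and horizontal cells (chromosome 9, 64385626 to 64709205, plus strand), stood at 29.9, 20.4, 16.3, 11.2 and 10.9 TPM in knockout and 21.5, 21.0, 10.8, 9.78 and 20.7 TPM in wild-type, a 3.06-fold range. The genotype ranges overlapped for both genes.

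Megf10 was below Megf11 in 10 of 10 libraries. It stood at 0.949, 2.33, 10.1, 0.634 and 0 TPM in knockout and 0.101, 0.225, 5.81, 1.86 and 0.0865 TPM in wild-type, with its highest levels in the libraries numbered 3 of each genotype. Slc10a4, which encodes a synaptic vesicle protein of cholinergic and monoaminergic neurons (chromosome 5, 73006883 to 73012955, plus strand), stood at 10.5, 29.6, 27.96, 26.9 and 6.23 TPM in knockout and 16.2, 4.86, 20.2, 99.1 and 2.79 TPM in wild-type. Wild-type 4 held 40.5% of its summed TPM, and the knockout range lay within that of wild-type.

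Among horizontal cell genes, the LIM homeobox gene Lhx1, which defines the type, was listed at 0 in every library. The Onecut genes, homeobox factors known from both horizontal and ganglion cells, were ordered Onecut1 above Onecut2 above Onecut3 in 10 of 10 libraries. Onecut1 (chromosome 9, 74861921 to 74891781, plus strand) stood at 20.1, 32.4, 13.8, 21.8 and 37.3 TPM in knockout and 50.2, 45.9, 17.0, 161 and 11.2 TPM in wild-type. Onecut2 stood at 5.82, 1.90, 1.99, 0.629 and 0.0764 TPM in knockout and 14.2, 7.58, 1.27, 5.90 and 0.579 TPM in wild-type. Onecut3 reached 1 TPM only in wild-type 2, at 2.18 TPM. The highest Onecut1 level was in wild-type 4 and the highest Onecut2 level in wild-type 1, and the genotypes overlapped for both.

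Calb1, which encodes the calcium-binding protein calbindin of horizontal cells and of some amacrine and ganglion cells (chromosome 4, 15881264 to 15908064, plus strand), stood at 4.03, 9.68, 8.03, 4.96 and 1.13 TPM in knockout and 16.8, 12.2, 14.2, 8.16 and 1.79 TPM in wild-type. Its means were 5.57 ± 3.37 TPM in knockout and 10.6 ± 5.86 TPM in wild-type (SD, n = 5 each), with wild-type 4 and 5 inside the knockout range. Prox1, a homeobox gene that promotes horizontal cell fate and is known from several interneuron types (chromosome 1, 190118035 to 190170714, minus strand), was measured at 2.82, 4.97, 10.9, 2.81 and 0 TPM in knockout and 2.47, 0.7095, 0, 0.278 and 0.468 TPM in wild-type. It reached 1 TPM in 4 knockout libraries and 1 wild-type library, so its inclusion in the test rested on the genotype in which it was high. Prox1 had the largest positive difference of the tested markers (log2 difference 1.31, SE 0.69, 95% interval -0.12 to 2.74, two-sided exact permutation p = 0.0952). Knockout 5, listed at 0, lay below 4 of the wild-type libraries.

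**Figure D2:**
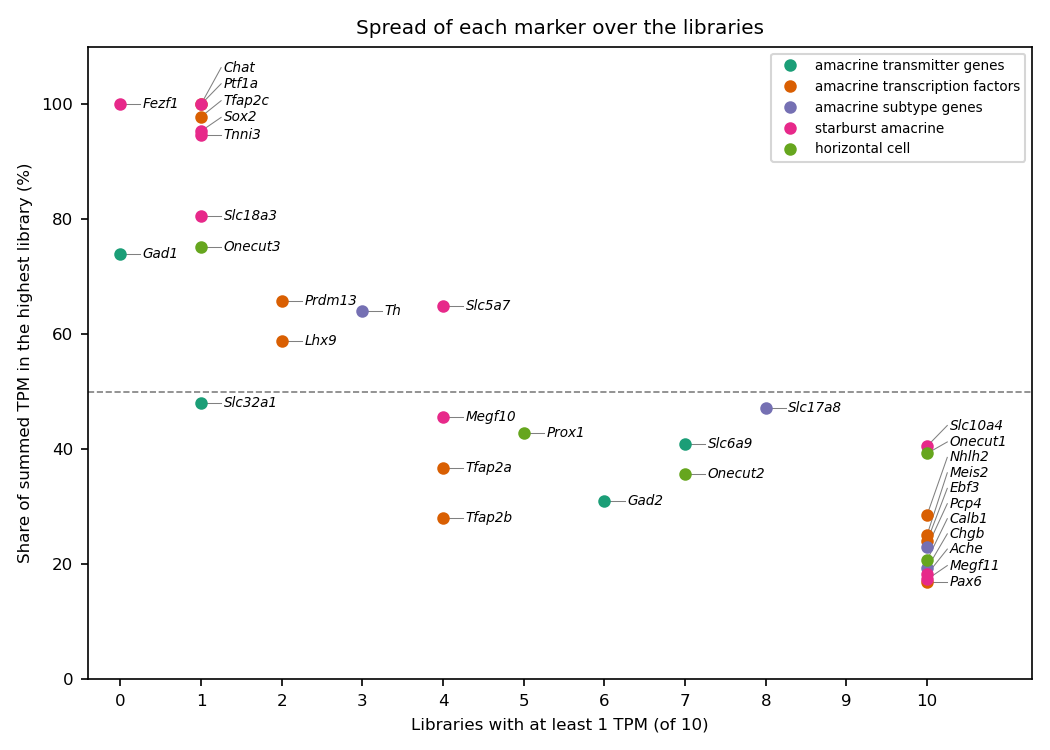
Each point is a marker with a value above 0 in some library (33 of 35), placed by the number of libraries with at least 1 TPM (horizontal axis) and by the share of its summed TPM found in its highest library (vertical axis, percent), coloured by list. Genes at the upper left, such as Ptf1a, Chat, Tfap2c and Sox2, rest on a single library, whereas the 11 genes at 10 libraries lie between 16.9% and 40.5%.

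The 19 markers at 1 TPM or more in fewer than 5 libraries, called sparse here, were concentrated in single libraries, to about the same extent as other sparse genes of the table. Of the 15 markers at 1 TPM or more in 1 to 4 libraries, 11 (73.3%) had over 50% of their summed TPM in their highest library, against 71.6% of all symbols of that class. Of the 11 markers found in all libraries none did, against 5.84% of symbols. The highest values of the sparse markers were not all in the same library. Wild-type 5 held the highest level of 4 of them (Tfap2b, Prdm13, Chat and Slc18a3), knockout 1 of 3 (Gad1, Slc5a7 and Sox2), and knockout 4 of 3 (Slc32a1, Ptf1a and Th).

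Counted by library, 5, 1, 5, 3 and 0 of the 19 sparse markers reached 1 TPM in knockout 1 to 5, and 3, 2, 4, 3 and 5 in wild-type 1 to 5. The rod phosphodiesterase gene Pde6g stood at 182, 35.03, 217, 149 and 0 TPM in the same knockout libraries and at 0, 1.56, 1.01, 192 and 189 TPM in the wild-type libraries. Knockout 1, knockout 3 and wild-type 5, with 5 sparse markers each, were among the 5 libraries with over 100 TPM of Pde6g, and knockout 5, with 0, was listed at 0 for Pde6g. The relation was not complete, since wild-type 3 had 4 sparse markers and 1.01 TPM of Pde6g. Over the 16 rod genes, between 2 and 15 reached 1 TPM in a library, and the list summed to 225 to 1889 TPM in knockout and 646 to 1111 TPM in wild-type. Much of that sum came from Gnb1, a G protein subunit gene found in every library (189 to 1564 TPM in knockout and 145 to 761 TPM in wild-type). Without the 2 rod list genes found in all libraries, the sums were 1.26 to 516 TPM in knockout and 5.21 to 516 TPM in wild-type. The number of genes with at least 1 TPM ran from 10073 in knockout 5 to 12555 in wild-type 2. The part of rod transcripts or of gene detection in these counts was not tested.

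**Figure D3:**
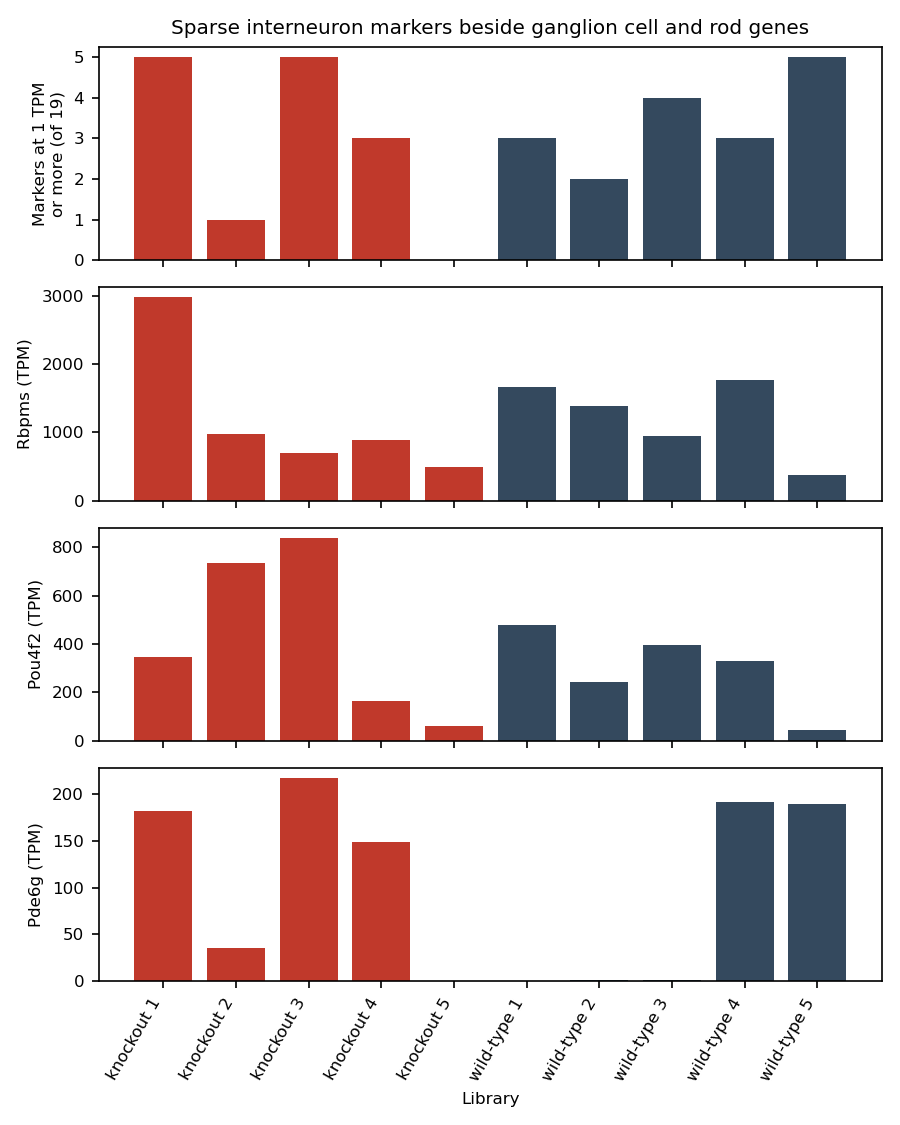
Bars give, for the knockout libraries (left, red) and the wild-type libraries (right, dark), the number of the 19 sparse markers with at least 1 TPM (top), and the TPM of the ganglion cell genes Rbpms and Pou4f2 and of the rod gene Pde6g (lower panels), all from 0. Knockout 5 has none of the sparse markers, and knockout 1, knockout 3 and wild-type 5 have 5 each.

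Between genotypes, none of the markers passed across the transcriptome. Of the 35, 16 met the filter of at least 1 TPM in at least 5 libraries and were tested. At a limma Benjamini-Hochberg adjusted p under 0.05, 0 of 16 were called, as were 0% of all 11744 tested genes. At an unadjusted p under 0.05, 2 of the 16 (12.5%), Slc6a9 and Pcp4, both lower in knockout, were counted, against 3.31% of all tested genes and 2.57% in the lower direction. Slc6a9 had entered the test through its wild-type libraries, so this count is not support for a difference among the markers. The other 14 had log2 differences between -0.99 and 1.31 with SEs of 0.55 to 0.91 and unadjusted limma p values of 0.0713 to 0.955. In direction, 6 were higher and 10 lower (62.5%) with a median of -0.36, where 67.4% of all tested genes were lower with a median of -0.31. Median centring moved the median of all genes to 0.07, and then 8 markers were higher and 8 lower. At an unadjusted limma p under 0.05, centring left 1 marker higher (Prox1) and 1 lower (Slc6a9), with Pcp4 no longer counted. Over all genes 234 were then higher and 149 lower, against 87 and 302 before centring. Prox1 had entered the test mainly through its knockout libraries, so its count after centring is not support for a difference either.

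**Figure D4:**
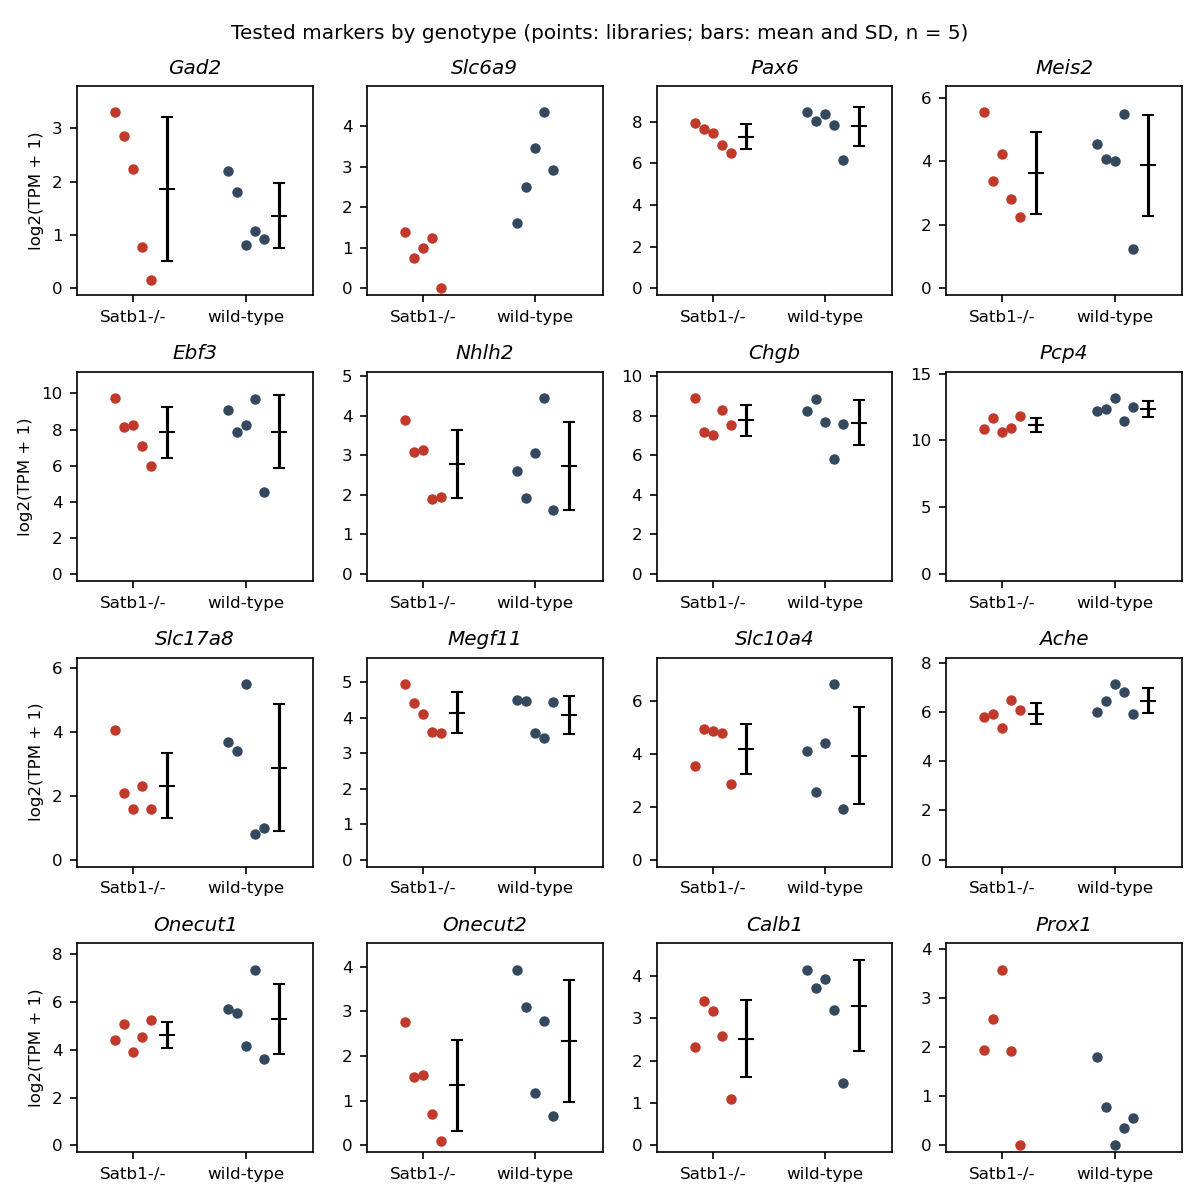
log2(TPM + 1) of the 16 tested markers in knockout (left, red) and wild-type (right, dark) libraries, with the mean and SD (n = 5) beside the points for genes with no library listed at 0. Slc6a9 is the 1 panel in which all knockout points lie below all wild-type points, and in Pcp4 wild-type 4 alone lies within the knockout range.

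A further list of 30 amacrine and horizontal cell genes gave a similar division. Of these 30, 13 had at least 1 TPM in all libraries, as did 32.5% of all symbols. The 15 tested had 3 higher and 12 lower estimates in knockout, with a median log2 difference of -0.34. Over all tested genes 67.4% were lower, with a median of -0.31. By limma, 0 passed at an adjusted p under 0.05. At an unadjusted p under 0.05 there was 1 in each direction, beside 3.31% of all tested genes (2.57% lower). Barhl2, a homeobox gene that acts in amacrine and ganglion cell development (chromosome 5, 106452523 to 106458166, minus strand), was measured at 169, 184, 152, 178 and 128 TPM in knockout 1 to 5, against 771, 302, 661, 450.2 and 294 TPM in wild-type 1 to 5. The genotypes did not overlap, as for 0.502% of all tested genes (0.426% in this direction), and the knockout libraries lay close together. Its log2 difference was -1.51 (SE 0.51, 95% interval -2.56 to -0.45). The two-sided exact permutation p was 0.00794, and from limma over all genes the Benjamini-Hochberg adjusted p was 0.992. Any gene whose genotypes do not overlap has this permutation p, the smallest that 5 against 5 libraries allow. Barhl2 was named for its unadjusted limma p under 0.05, so the permutation p, from the same values, adds no separate support. The neuropeptide gene Npy stood at 1161, 663, 718, 1415 and 1051 TPM against 465, 417, 239, 191 and 1011 TPM in wild-type, where wild-type 5 alone lay within the knockout range. The difference for Npy was 1.30 on the log2 scale with an SE of 0.54, and its limma p after Benjamini-Hochberg adjustment was 0.992.

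Outside the amacrine and horizontal lists, besides Rgs5, an unadjusted limma p under 0.05 was found for 2 genes of the context lists. Tested were 13 pan-ganglion cell, 12 rod, 5 cone, 8 bipolar, 6 Muller glia, 13 microglia, 1 pericyte and 1 astrocyte gene. Over all tested genes the share was 3.31%. Of the 13 microglia genes, 6 were higher and 7 lower in knockout (median log2 difference -0.03). Of the 5 cone genes tested, 2 were higher and 3 lower. Fcer1g, an Fc receptor subunit gene of microglia, stood at 13.1 to 1483 TPM in knockout and 0.634 to 97.8 TPM in wild-type (log2 difference 2.89, SE 1.21). Thrb, the thyroid hormone receptor beta gene known from cones, stood at 0.188 to 17.7 TPM in knockout and 3.52 to 68.4 TPM in wild-type (log2 difference -2.29, SE 0.90). The ranges overlapped for both, and after Benjamini-Hochberg adjustment over all genes the limma p was 0.992 for each.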

How the data were processed

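The deposited table gives 23746 entries in 10 libraries as log10(TPM + 1), as made by the authors. The offset of 1 was checked on the file, in which every library sums to 1000000 TPM once transformed back. The submitters' processing notes list TopHat2 2.0.10, Cufflinks and mm10. No source at hand states the annotation, how reads were counted or whether strand was used, so overlapping or closely similar genes may share reads. Depth is unknown. Per the labels' protocols, cDNA came from an amplification kit for small amounts of RNA.

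Numeric entries without a symbol (26, at most 0.198% of a library's TPM) were left out and repeated symbols summed, leaving 23258. For the genotype comparison, 11744 genes reaching 1 TPM in 5 or more libraries entered limma 3.58.1 (R 4.3.3) on log2(TPM + 1), fitted by genotype alone with the trend option. P-values were adjusted by Benjamini-Hochberg over all of them, with a threshold of 0.05. The fit was tested on simulated data. Positions are from GENCODE M21 on GRCm38, the assembly also called mm10.

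The markers and lists were chosen with earlier results of these data known. Markers reaching 10 TPM in some library, or an unadjusted p under 0.05, are given in every library, and the others by their range or their values above 0. Of other genes, those with an unadjusted p under 0.05 and a few defining markers are named; Thy1, Gap43, Apoe, Vim and Gnb1 were chosen after their values were seen. Alternatives covered pseudocount, filter, scaling, a replicate block, trend, library weights, the 1 TPM limit and libraries left out. A term for the 3 libraries apart on the first component, and detection without them, were added after the data had been seen.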

Additional observations from a re-analysis of the deposited data

Results flagged for a closer look

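In 12 of 54 sets of 5 libraries of a genotype (22.2%), 1 library lay far from the other 4 by Dixon's criterion on the log2(TPM + 1) scale. A set was examined only if its highest library reached 1 TPM. Sets could therefore enter through the library then found to lie apart. The rate of about 1 of 20 that chance alone gives holds for sets not chosen in this way, so the shares cannot be compared. For genes mostly listed at 0, a single value above 0 meets it by construction. In knockout, these were Slc5a7 (12.3 TPM) and Sox2 (1.65 TPM) in knockout 1, and Slc32a1 (1.18 TPM) and Ptf1a (1.39 TPM) in knockout 4. In wild-type, they were Lhx9 (2.99 TPM) and Tnni3 (9.43 TPM) in wild-type 1, Tfap2c (2.11 TPM) in wild-type 3, Th (2.24 TPM) in wild-type 4, and Prdm13 (3.33 TPM), Chat (1.68 TPM) and Slc18a3 (2.45 TPM) in wild-type 5. The low side was met once, by Pax6 in wild-type 5 at 70.4 TPM.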

How the results depend on the processing

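No marker tested passed an adjusted p of 0.05 in any of the 21 alternative fits. Over all genes, 0 passed in the fit reported, 1 with a mean filter of 5 TPM, 1 without the trend, 3 with library weights, and 0 to 1 with a library left out (1 without wild-type 3, 4 or 5). At an unadjusted p under 0.05, 389 genes became 830 with a replicate block, 834 with library weights and 286 to 845 with a library left out. The 2 markers so counted became 1 without a filter, with the mean filter and without the trend. They became 3, with Prox1 added, under quantile normalization, with library weights, without the 3 libraries apart and with a term for them. With a library left out, 1 to 3 were counted. The replicate numbers were not taken as pairs, because the deviations of same-numbered libraries correlated at -0.03 to 0.36, and 3 of 5 knockout libraries correlated best with their own number; under the block 2 markers were counted and 0 passed. Of the 16 tested markers, 9 kept their direction in every fit that held them, among them Pcp4 in 21 (-1.50 to -0.78) and Slc6a9 (-3.19 to -1.06) and Prox1 (0.59 to 2.01) in 20 each; Slc6a9, Prox1, Gad2 and Onecut2 were not in the fit with the mean filter. Meis2 turned after median centring (0.14), quantile normalization (0.23) and with a term for the 3 libraries apart (0.25), Ebf3 in the same fits (0.33, 0.0052 and 0.55), and with library weights Chgb (-0.43) and Megf11 (-0.0042). With a library left out, the log2 difference ran from -0.90 to 0.17 for Meis2, -0.88 to 0.42 for Ebf3, -0.22 to 0.49 for Nhlh2, -0.32 to 0.44 for Chgb, -1.08 to 0.10 for Slc17a8, -0.15 to 0.20 for Megf11 and -0.23 to 0.95 for Slc10a4. At limits of 5 and 10 TPM, 7 and 6 markers were found in all libraries and 14 and 18 in none; at 10 TPM, 3 were found in 5 to 9 libraries and 8 in 1 to 4. Without the 3 libraries apart, 9 were found in fewer than 50% of libraries and 8 in none. With a library left out the classes held 11, 4 to 5, 13 to 16 and 4 to 6. The summed inhibitory transmission list differed by -1.81 (log2), and by 0.39 without its highest gene; the subtype list by -1.06, by -0.22 as a mean of log2 values, and by 0.09 without its highest gene. Causes of these shifts were not tested beyond what each setting changes. Depth is unknown, so values near 1 TPM carry no stated counting error, and 5 libraries per genotype limit the precision.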
